A study of Homo sapiens with 68 samples.

Results

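DNA break repair and checkpoint genes were followed through treatment of Ewing sarcoma cells with 3 cytotoxic compounds. The set was fixed by name and held 35 genes of homologous recombination, end joining, the Fanconi anemia pathway, DNA end processing with mismatch repair, and the checkpoint kinases. Of these, 33 had a probe set assigned to them alone, out of 11882 genes measured. BRCA2 and FANCA had none in the annotation used and were not analysed here. Each gene was represented by its brightest probe set, by the mean signal over all arrays.

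The cells were of A673, an established Ewing sarcoma line that carries the EWS/FLI fusion. They were given DMSO vehicle, ARA-C (cytarabine, a cytosine nucleoside analog that stops DNA synthesis), doxorubicin (an anthracycline that traps topoisomerase II on DNA) or puromycin (an inhibitor of protein synthesis). The EC50, which the study took at 3 days, was 0.17 µM for ARA-C, 59.88 nM for doxorubicin and 0.09 µM for puromycin. The doses of 2xEC50 were 0.34 µM, 119.76 nM and 0.18 µM. In the study the EC50 of ARA-C for A673 was lower at a later time than at 3 days. The question was whether compounds that kill these cells by other means change expression as ARA-C does.

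RNA was measured on 68 Affymetrix arrays, from 24 h, 3 days and 5 days of treatment. Vehicle had 6, 5 and 6 arrays at these times. Every compound, dose and time had 3 arrays, except doxorubicin 2xEC50 on day 5 with 2 and puromycin 2xEC50 on day 5 with 1. Puromycin EC50 on day 5 had 2 arrays in the fit after 1 was left out. The labels call replicates biological, but do not say whether they came from separate cultures on separate days. The cells of all groups come from 1 line, and the signal of a gene in bulk RNA cannot tell fewer cells that express it from less RNA per cell.

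Broken DNA is rejoined mainly along 2 routes. In homologous recombination, the ends are cut back to single strands and the lost sequence is copied from the sister chromatid, which ties this route to S and G2 phase. In nonhomologous end joining, the Ku proteins hold the ends and a ligase seals them directly, in any phase of the cycle. The Fanconi anemia proteins unhook crosslinks and guard stalled replication forks. ATM answers to broken ends and ATR to stretches of single-stranded DNA at stalled forks, and through the kinases CHEK2, CHEK1 and WEE1 they hold the cell cycle until repair is done. ARA-C stalls forks, and doxorubicin leaves breaks where topoisomerase II is trapped.

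Some arrays stood apart before any comparison. Puromycin EC50 day 5 array 3 had a summed signal of 101400 over 11 blood cell markers and was left out. On the 67 arrays of the fit this sum ran from 89.31 to 1113, and the signal of HBB, the beta globin gene, was at most 123.2. IL7R, the interleukin 7 receptor, reached the highest signals of the 11, from 18.69 to 839, and no other passed 190.5. On day 3 the sum was 149 to 509.4 in vehicle, 417.8 to 1113 with ARA-C EC50, 691 to 819.7 with doxorubicin EC50 and 119.1 to 194.9 with puromycin EC50, and its part in the results was not tested. The summed signal of 7 Ewing sarcoma markers ran from 27970 to 60400, and was 5551 on the array left out. ARA-C EC50 day 3 array 3 and ARA-C 2xEC50 24 h array 2 had raised low signals: 0.2206% and 0.9408% of their values lay under 10, against a median of 19.93% over all arrays. The ratio of the 3′ to the 5′ signal of ACTB, which rises as RNA breaks down, ran from 0.15 to 5.074 on the log2 scale and was highest on day 5. Vehicle arrays 1 to 3 and most treated arrays lay in rows A-F of the array plate, while vehicle arrays 4 to 6, ARA-C 2xEC50 and the lone puromycin array lay in rows G-H.

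In the deposited scaling doxorubicin lowered repair genes from day 3 and puromycin changed few. ARA-C lowered some and raised others, but at its EC50 on day 5 it lowered 28 of the 33 and raised none. In what follows a gene is called lower or higher when its adjusted p from 1 limma fit over 22215 probe sets was under 0.05. Changes are log2 differences from the vehicle arrays of the same time, after setting signals under 10 to 10. Treated arrays all below or all above vehicle were also counted over all probe sets. At ARA-C EC50 12.4% lay below and 14.1% above on day 3, and 29% and 7.28% on day 5. At doxorubicin EC50 it was 17.1% and 14.2%, then 25.1% and 10.7%. At puromycin EC50 it was 11.9% and 4.83%, then 19.2% and 8.74%. At 24 h the EC50 shares ran from 4.92% to 15.2% below and 5.82% to 9.04% above. At ARA-C 2xEC50, 11.8% lay above at 24 h and 15% on day 3.

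At 24 h of ARA-C EC50, 5 of the 33 genes were lower and 4 higher, while 8.97% of all probe sets were lower and 5.42% higher. On day 3, 8 were lower and 3 higher, against 7.92% and 14.5% of all probe sets. On day 5, 28 were lower and none higher, against 38% and 10.3%. In the deposited scaling all calls of that day were downward, with a median change over the 33 genes of -0.98 against -0.28 for all probe sets. At ARA-C 2xEC50 the counts lower and higher were 2 and 2 at 24 h (background 2.21% and 6.66%), 7 and 4 on day 3 (8.05% and 9.95%), and 12 and 5 on day 5 (13.6% and 11.4%). Single arrays carried part of these counts. At ARA-C EC50 the 9 calls of 24 h became 4 without array 2 and 5 without array 3, and the 11 of day 3 became 7 without array 3. At ARA-C 2xEC50 the 11 of day 3 became 7 without array 1, 7 without array 2 and 6 without array 3.

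Doxorubicin EC50 changed few of these genes at 24 h, with 1 lower and 2 higher (background 2.75% and 2.52%). On day 3, 14 of 33 were lower and none higher, where 11.1% of all probe sets were lower and 9.03% higher. On day 5, 26 were lower and none higher (background 29.2% and 12.1%). The median over the 33 genes was -0.35 on day 3 and -0.70 on day 5, and that of all probe sets 0.00 and -0.15. At doxorubicin 2xEC50, 4 were lower and 2 higher at 24 h (background 7.72% and 6.59%), 10 lower and none higher on day 3 (11.1% and 11.5%), and 29 lower and 1 higher on day 5 (37.9% and 15.8%). The 14 calls of doxorubicin EC50 on day 3 became 8 without array 1 and 9 without array 3. Its 3 calls of 24 h became 5 without array 2 and 1 without array 3, and the 6 of 2xEC50 at 24 h became 3 without array 2 and 2 without array 3.

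Puromycin changed between 1 and 4 of the 33 genes in each comparison with replicates. At its EC50, 1 was lower and none higher at 24 h (background 8.41% and 2.09%), 1 lower and 1 higher on day 3 (2.4% and 0.675%), and 1 lower and 3 higher on day 5 (12.1% and 5.31%). At 2xEC50, 1 was lower and 2 higher at 24 h (4.29% and 3.31%), and 1 lower and 2 higher on day 3 (7.13% and 4.32%). The single call of EC50 at 24 h became 2 without array 2 or vehicle array 5. The 2 calls of day 3 at EC50 became 0 without array 1 and 1 without vehicle array 5, and the 4 of day 5 became 1 without array 1 and 2 without array 2. The single puromycin 2xEC50 array of day 5 allows no test. Its median change over the 33 genes was -0.57, and over all probe sets -0.30.

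**Figure D1:**
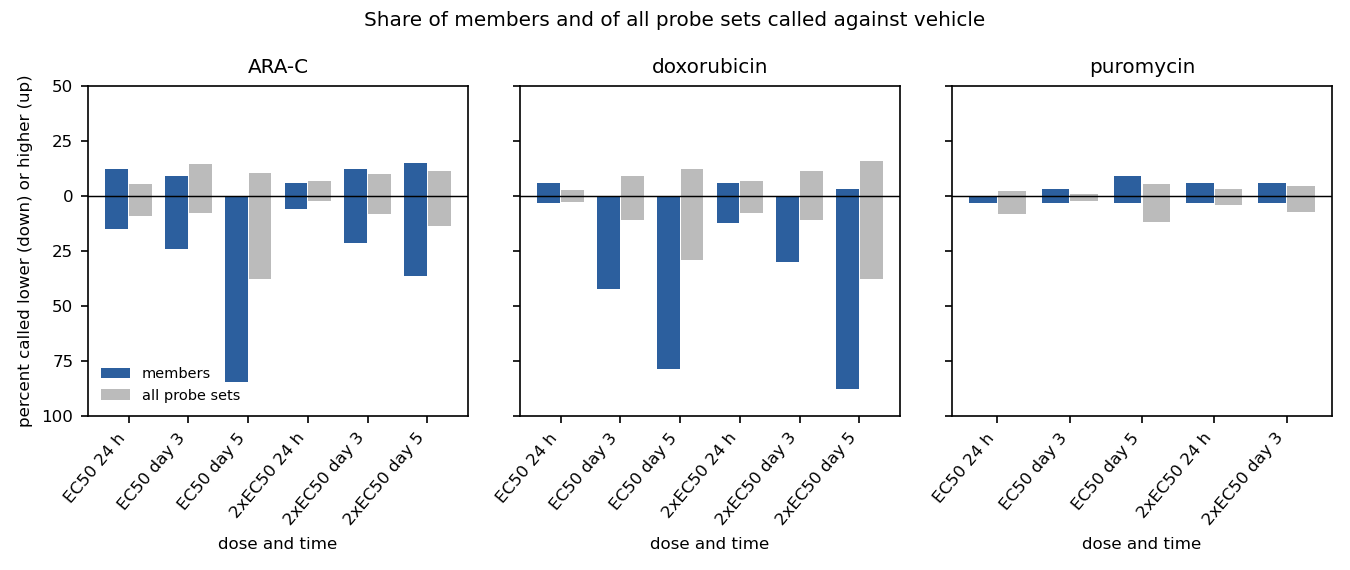
Percent of the 33 member genes (blue) and of all 22215 probe sets (grey) called against vehicle, per compound, dose and time, with genes lower drawn downward and higher upward. The blue bars reach furthest below the grey ones on day 5 of both doxorubicin doses and of ARA-C EC50, followed by day 3 of doxorubicin EC50, and stay short throughout for puromycin.

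**Figure D2:**
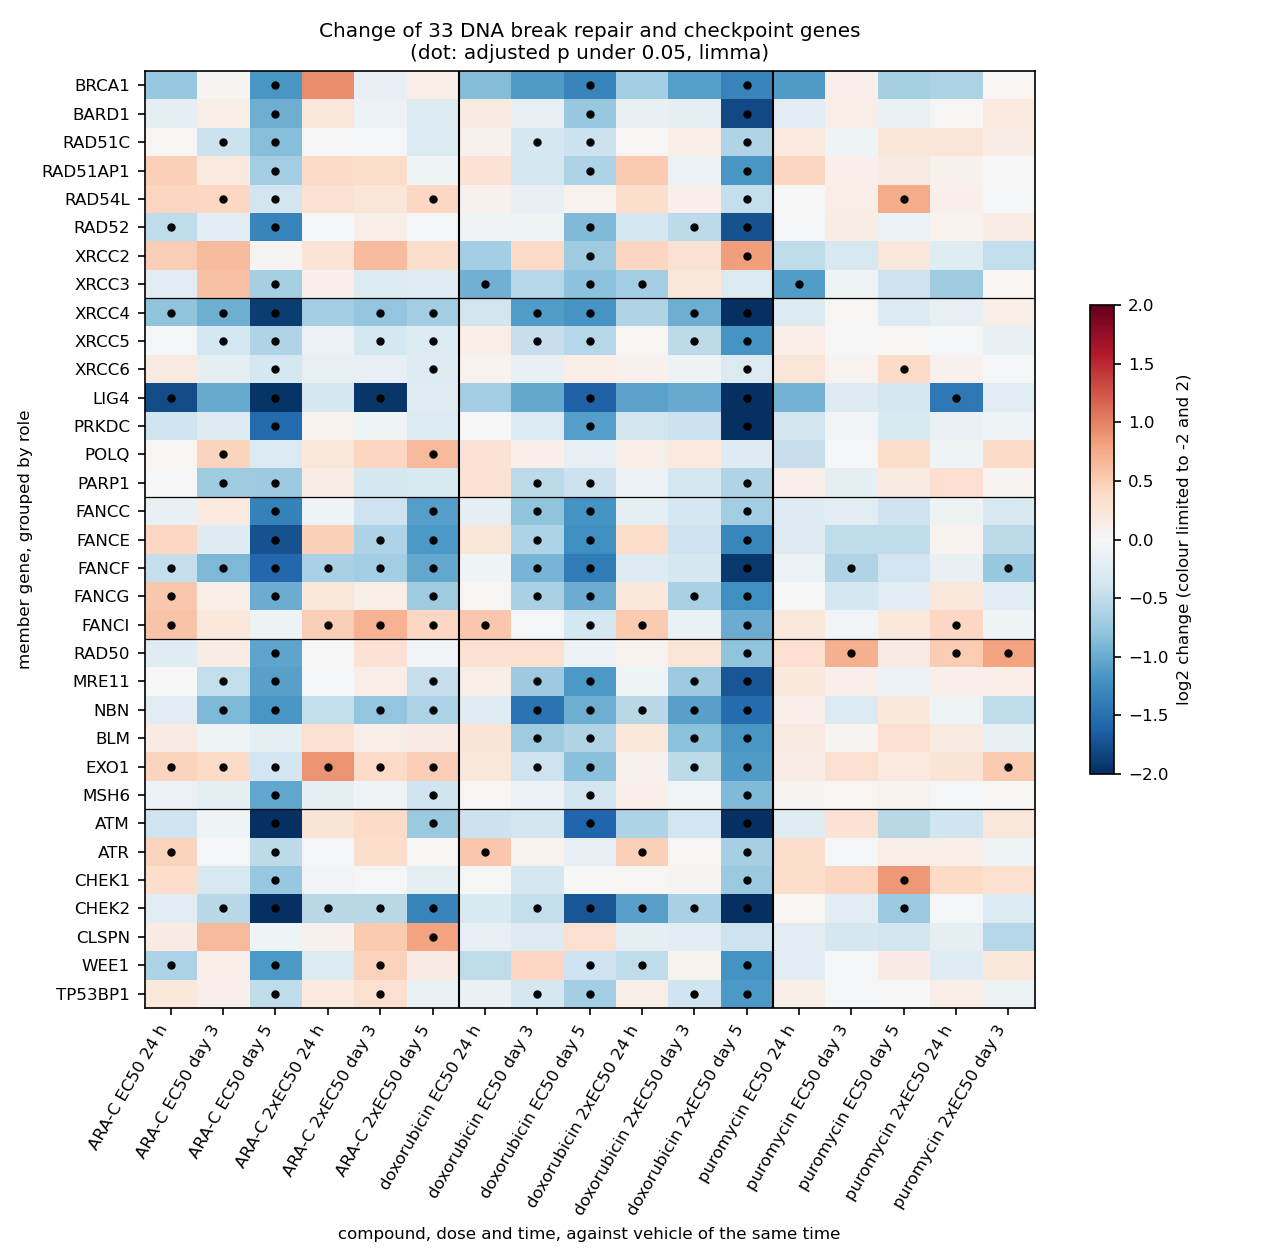
Log2 change from vehicle of each member gene (vertical axis, with lines between roles) in the 17 comparisons with replicates (horizontal axis). Dots mark adjusted p under 0.05. EXO1 is red in 5 of the 6 ARA-C columns, NBN, FANCF and XRCC4 are blue in both ARA-C and doxorubicin from day 3, and the day 5 columns of ARA-C EC50 and doxorubicin are blue for nearly all genes.

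The day 5 counts moved with the scaling of the arrays. Quantile normalization, which sets the median of all probe sets near 0, gave 13 lower and 8 higher at ARA-C EC50 on day 5 (all probe sets 22% and 20.7%), and 16 lower and 6 higher at doxorubicin EC50 (19.4% and 19%). With arrays set to a common median the day 5 counts were 17 lower and none higher at ARA-C EC50 (25.6% and 22.2%). At doxorubicin EC50 they were 14 lower and 1 higher (18.4% and 21.5%). The day 3 count of doxorubicin EC50 was 14 lower under both, with 2 higher under quantile normalization. All probe sets were 10.9% lower and 11% higher there under quantile normalization, and 11% and 8.22% under a common median. At ARA-C EC50 on day 3, where the median of all probe sets was 0.28, a common median gave 15 lower and none higher (20.3% and 6.31%). The rises of EXO1, RAD54L and POLQ of that day were then not called. Quantile normalization gave 9 lower and 4 higher there (10.5% and 10.1%). At 24 h quantile normalization gave 4 lower and 7 higher at ARA-C EC50 (7.96% and 8.56%). A common median gave 7 lower and 1 higher at ARA-C 2xEC50 of 24 h (12.8% and 2.63%). For puromycin EC50 the split turned with the scaling. A common median gave 1 lower and 9 higher at 24 h (2.82% and 8.86%), and none lower and 15 higher on day 5 (4.75% and 19.4%). Quantile normalization gave 1 lower and 7 higher at 24 h (5.22% and 5.94%).

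The promoters of 5 members are printed to show which of them hold cell cycle motifs. CHEK2, FANCF and XRCC4 were chosen as genes among the largest falls, and BLM and RAD54L after their values were seen, because they differed between ARA-C and doxorubicin EC50 on day 3. Each sequence holds the 250 bases before a RefSeq start in GRCh38.p14, 5′ to 3′ on the strand of the gene. Capitals mark TTCCCGC or TTGGCGC, both forms of the E2F site, TTTGAA, the cell cycle homology region, and CCAAT, the NF-Y site, on either strand.
CHEK2, chr22:28741821-28742070 (- strand): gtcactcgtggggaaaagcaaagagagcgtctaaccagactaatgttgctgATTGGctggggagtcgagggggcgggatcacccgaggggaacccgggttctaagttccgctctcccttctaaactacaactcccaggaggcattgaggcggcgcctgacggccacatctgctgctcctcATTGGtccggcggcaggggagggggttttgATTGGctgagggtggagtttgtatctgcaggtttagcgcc
FANCF, chr11:22625824-22626073 (- strand): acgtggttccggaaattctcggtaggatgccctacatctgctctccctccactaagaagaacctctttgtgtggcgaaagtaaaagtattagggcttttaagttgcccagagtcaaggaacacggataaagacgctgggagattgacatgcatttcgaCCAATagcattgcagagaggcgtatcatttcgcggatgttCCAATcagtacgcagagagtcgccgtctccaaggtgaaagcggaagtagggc
XRCC4, chr5:83077297-83077546 (+ strand): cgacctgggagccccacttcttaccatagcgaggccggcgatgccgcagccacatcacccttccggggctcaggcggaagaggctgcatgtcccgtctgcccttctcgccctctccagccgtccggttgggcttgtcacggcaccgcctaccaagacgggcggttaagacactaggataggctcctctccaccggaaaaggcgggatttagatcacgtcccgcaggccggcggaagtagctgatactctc
BLM, chr15:90717096-90717345 (+ strand): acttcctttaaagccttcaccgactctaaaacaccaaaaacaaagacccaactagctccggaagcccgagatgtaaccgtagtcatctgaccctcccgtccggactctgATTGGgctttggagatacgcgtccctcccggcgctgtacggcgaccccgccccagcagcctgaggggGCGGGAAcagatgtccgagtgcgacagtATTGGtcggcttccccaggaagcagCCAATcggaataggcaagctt
RAD54L, chr1:46247438-46247687 (+ strand): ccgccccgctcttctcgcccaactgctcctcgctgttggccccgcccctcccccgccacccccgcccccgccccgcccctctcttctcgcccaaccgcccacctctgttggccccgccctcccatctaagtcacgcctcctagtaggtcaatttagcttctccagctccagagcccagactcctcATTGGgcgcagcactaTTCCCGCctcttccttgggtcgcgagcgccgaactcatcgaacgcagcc

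The BLM window holds TTCCCGC 74 to 68 bases before the start, read on the other strand, and 3 CCAAT boxes. The RAD54L window holds TTCCCGC and CCAAT, those of CHEK2 and FANCF hold CCAAT only, and that of XRCC4 holds none of the 4 motifs. Promoters of 28 of the 33 genes were in the table, with 44 windows in all. TTCCCGC was in 27.3% of these windows and in 5.52% of all 35116 windows, TTGGCGC in 2.27% and 2.56%, TTTGAA in 6.82% and 13.3%, and CCAAT in 45.5% and 32%. Windows of 1 gene overlap in part, so they are not independent, and a match is not a bound site.

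Among the 8 genes of homologous recombination, few moved before day 5. Under doxorubicin EC50 on day 3 only RAD51C, which acts in strand exchange, was called, with a change of -0.33 (SE 0.12, adjusted p = 0.0312) by limma, and it was also lower at ARA-C EC50 (-0.42). The doxorubicin call was lost under a common median, against vehicle of the same plate part, and without array 1, array 3 or vehicle array 1, 5 or 6, and the ARA-C call without array 3. RAD54L, the motor protein that drives strand exchange (chr1:46247688-46278473 of GRCh38.p14), gave signals of 1166, 1293 and 1335 on the ARA-C EC50 arrays of day 3 and 918, 999.8, 924, 832 and 1056 on the 5 vehicle arrays. All 3 treated arrays lay above all vehicle arrays, for a change of 0.42 (SE 0.16, adjusted p = 0.0474) by limma. That call was lost with plate part as a block (0.22), against vehicle of the same plate part, with the replicate block, under a common median, and without ARA-C array 2, array 3 or vehicle array 1, 2, 4 or 5. On day 5 of puromycin EC50 its signals were 1259 and 1372, and those of the vehicle arrays were between 487 and 1106 with a median of 847. That rise of 0.75 (adjusted p = 0.00174 by limma) became 0.37 and was no longer called against vehicle of the same plate part, nor was it called without array 2.

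XRCC3, which works with RAD51C (chr14:103697617-103715451), was lower at 24 h of doxorubicin and puromycin. Its signals were 118, 196 and 134 with doxorubicin EC50 and 104, 169 and 127 with puromycin EC50, and in vehicle between 226 and 315 with a median of 288. The groups did not overlap, and the changes were -0.96 (SE 0.24, adjusted p = 0.0084) and -1.11 (SE 0.24, adjusted p = 9.37e-04) by limma. Without doxorubicin EC50 array 1 or array 3 of 24 h the first was no longer called.

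BRCA1, which promotes homologous recombination and was measured by a dim probe set that can also bind other transcripts, spread widely. Its signals on day 3 were 272, 106, 216, 242 and 219 in vehicle, 209.8, 137 and 316 with ARA-C EC50 and 71.2, 162 and 67.7 with doxorubicin EC50. The groups overlapped, and neither change (0.05 and -1.13) was called. On day 5 it was called lower at ARA-C EC50 (-1.16, SE 0.41, adjusted p = 0.0161) and doxorubicin EC50 (-1.32, SE 0.41, adjusted p = 0.00741) by limma. The vehicle arrays of day 5 ran between 72.2 and 292 with a median of 162, and rows G-H exceeded rows A-F by 1.60 there. Against vehicle of the same plate part the change at ARA-C EC50 was -0.36 and not called, nor was it without ARA-C array 2 or vehicle array 6. That at doxorubicin EC50 was -0.52 there and not called, nor was it without array 2. At 24 h ARA-C EC50 gave 68.7, 117 and 108, doxorubicin EC50 29.9, 234 and 98.4 and puromycin EC50 62.2, 83 and 77.8 against vehicle between 133 and 189 with a median of 164, with no call. BARD1, the partner of BRCA1, and RAD51AP1, which helps strands pair, were called on day 5 only, lower at ARA-C EC50 (-0.98 and -0.69) and at both doses of doxorubicin. RAD52, which anneals single strands, was lower at ARA-C EC50 at 24 h (-0.50), at doxorubicin 2xEC50 on day 3 (-0.52) and on day 5 of ARA-C EC50 and both doxorubicin doses. The first 2 were lost with plate part as a block and without array 3, and the 24 h call also without array 2. XRCC2, also of strand exchange, was called lower on day 5 at doxorubicin EC50 (-0.70) and higher at 2xEC50 (0.83). The first was lost under quantile normalization or a common median and without array 1, array 2 or vehicle array 1, 2, 3 or 5. The second was lost with plate part as a block and without array 3 or vehicle array 4.

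Of the 7 genes of end joining, 6 were called lower in at least 1 comparison of ARA-C and 1 of doxorubicin, and POLQ in none. The share of all probe sets that meet this rule was not counted. On day 5 alone 38% of all probe sets were lower at ARA-C EC50 and 29.2% at doxorubicin EC50. On day 3 of both EC50 doses XRCC4, XRCC5 and PARP1 were lower. XRCC4, the scaffold of the end joining ligase (chr5:83077547-83374473), gave vehicle signals of 376, 368, 369, 362 and 417 on day 3. With ARA-C EC50 they were 181, 159 and 241, and with doxorubicin EC50 170.2, 218 and 142. Every treated array lay below every vehicle array, and the changes were -0.98 (SE 0.24, adjusted p = 0.00249) and -1.12 (SE 0.24, adjusted p = 3.60e-04) by limma. Puromycin EC50 left it at 406, 368 and 382, a change of 0.03 with a 95% interval -0.46 to 0.52. At 24 h the ARA-C EC50 signals were 245, 113 and 214 and those of vehicle between 267 and 354 with a median of 329, a change of -0.81 (SE 0.24, adjusted p = 0.013) by limma that was lost without array 2. On day 5 ARA-C EC50 gave 121, 124 and 40.3 and doxorubicin EC50 147, 123 and 151, against vehicle signals between 286 and 351 with a median of 310.3. This probe set can also bind other transcripts.

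LIG4, the ligase that works with XRCC4 (chr13:108207442-108218349), was dim and variable, and its probe set reached down to the floor. At 24 h its signals were between 172 and 295 with a median of 237 in vehicle and 106, 46.4 and 60.3 with ARA-C EC50. The groups did not overlap, and the change was -1.79 (SE 0.46, adjusted p = 0.00468) by limma, which was lost without array 2. On day 5 vehicle ran between 85.1 and 176 with a median of 128, ARA-C EC50 gave 43.8, 10.8 and 77.7 and doxorubicin EC50 51.6, 38.4 and 37.7, with changes of -1.97 (SE 0.46, adjusted p = 2.43e-04) and -1.62 (SE 0.46, adjusted p = 0.00285) by limma. On day 3 only ARA-C 2xEC50 was called, at 115, 87.1 and 30.8 against vehicle 308, 227, 263, 214 and 301 (change -1.94, SE 0.47, adjusted p = 0.00176, by limma), and without array 3 it was not. At puromycin 2xEC50 at 24 h LIG4 changed by -1.43, a call that was lost with no floor, with the ACTB covariate (-0.64), with plate part or replicate number as a block, against vehicle of the same plate part, and without its array 1 (-0.51) or vehicle array 1, 3 or 4.

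Of the Ku subunits, XRCC5 (Ku80) was lower on day 3 at ARA-C EC50 (-0.35) and doxorubicin EC50 (-0.46), while XRCC6 (Ku70) changed there by -0.20 and -0.14 with no call. PRKDC, the catalytic subunit of DNA-PK that Ku recruits, was called lower on day 5 only, with changes of -1.55 at ARA-C EC50, -1.09 at doxorubicin EC50 and -3.16 at doxorubicin 2xEC50, its largest change. PARP1, which marks breaks with poly(ADP-ribose), was lower on day 3 at ARA-C EC50 (-0.72) and doxorubicin EC50 (-0.52). POLQ, the polymerase of microhomology-mediated joining, was the end joining gene that ARA-C raised, by 0.44 at EC50 on day 3 and 0.65 at 2xEC50 on day 5. The day 3 call of POLQ was lost with plate part as a block (0.36), against vehicle of the same plate part, with the replicate block, under a common median, and without ARA-C array 2, array 3 or vehicle array 2, 4, 5 or 6. The day 5 call was kept under every alternative run. The PARP1 call at doxorubicin EC50 was lost against vehicle of the same plate part and without doxorubicin array 1, array 3 or vehicle array 5, and the XRCC5 call at ARA-C EC50 against vehicle of the same plate part.

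Of the 5 Fanconi anemia genes, 4 fell on day 3 of doxorubicin EC50 and 1 of ARA-C EC50 (all probe sets lower 11.1% and 7.92%). FANCF, an adaptor of the core complex (chr11:22622533-22625823), was lower in every ARA-C comparison. On day 3 the vehicle arrays gave 645, 667, 694, 797 and 685, ARA-C EC50 277, 443 and 419 and doxorubicin EC50 361, 384 and 351. Every treated array of both drugs lay below every vehicle array, with changes of -0.90 (SE 0.16, adjusted p = 2.30e-05) and -0.93 (SE 0.16, adjusted p = 6.18e-06) by limma. Puromycin also lowered FANCF on day 3, to 406, 494 and 486 at EC50 and 426, 419 and 386 at 2xEC50, with changes of -0.60 (SE 0.16, adjusted p = 0.0189) and -0.76 (SE 0.16, adjusted p = 3.21e-04) by limma. The change at puromycin EC50 was not called under quantile normalization, a common median, or without its array 1 or vehicle array 5. At 24 h ARA-C EC50 gave 599, 536 and 495 against vehicle between 654 and 934 with a median of 731, a change of -0.48 (SE 0.15, adjusted p = 0.0249) by limma that was lost under quantile normalization or a common median and without array 2, array 3 or vehicle array 1 or 2. On day 5 vehicle ran between 598 and 831 with a median of 651, ARA-C EC50 gave 296, 221 and 177 and doxorubicin EC50 235, 272 and 256.

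FANCG, also of the core complex (chr9:35073839-35079942), went in opposite directions before day 5. ARA-C EC50 raised it at 24 h, to 2668, 2376 and 2464 against vehicle between 1379.7 and 2107 with a median of 1697, a change of 0.54 (SE 0.13, adjusted p = 0.00273) by limma that was not called against vehicle of the same plate part (0.35). Doxorubicin EC50 left it near vehicle at 24 h (0.03) and lowered it on day 3, to 1084, 1088 and 1033 against 1812, 1848, 1569, 1499 and 1686, a change of -0.65 (SE 0.13, adjusted p = 1.66e-04) by limma. On day 3 of ARA-C EC50 its change was 0.12. On day 5 FANCG was lower at the EC50 of both drugs. With plate part as a block its changes there were -1.10 for ARA-C and -1.09 for doxorubicin. Without the block the 2 drugs differed by -0.0046 on day 5, with no call. FANCC and FANCE, which join the same complex, were lower on day 3 of doxorubicin EC50, with changes of -0.81 and -0.61, and changed by 0.19 and -0.26 at ARA-C EC50 with no call. The FANCC fall was not called with plate part as a block (-0.75), with the replicate block, against vehicle of the same plate part, or without array 3. That of FANCE was not called against vehicle of the same plate part, or without array 1 or array 3.

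FANCI, which the core complex ubiquitinates together with FANCD2 (chr15:89243979-89317259), rose at 24 h under both drugs that act on DNA. Vehicle signals ran between 3484 and 4133 with a median of 3615, while ARA-C EC50 gave 5681, 5144 and 5573 and doxorubicin EC50 5754, 5065 and 5256. All 6 treated arrays lay above all vehicle arrays, with changes of 0.56 (SE 0.09, adjusted p = 6.25e-06) and 0.53 (SE 0.09, adjusted p = 3.60e-05) by limma. Puromycin EC50 gave 4147, 4405 and 4225, a change of 0.20 that was not called, and at puromycin 2xEC50 the change of 0.42 was called. On day 3 ARA-C 2xEC50 kept it high at 6356, 5503 and 6162 against 3977, 3613, 3603, 3741 and 3585, a change of 0.70 (SE 0.09, adjusted p = 2.80e-08) by limma, while doxorubicin EC50 was at 3722, 4226 and 3105.

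Of the 6 genes of end processing and mismatch repair, 4 fell on day 3 of doxorubicin EC50 (all probe sets lower 11.1%). NBN, which recruits ATM to breaks as part of the MRE11 complex, changed most of the 33 genes in that comparison. Its vehicle signals were 1203, 1072, 924, 1074 and 1002, and those of doxorubicin EC50 were 344, 434 and 357. The highest treated array lay under the lowest vehicle array, for a change of -1.48 (SE 0.20, adjusted p = 2.63e-08) by limma. All 4 probe sets of NBN were called lower there, with changes from -1.05 to -1.51. ARA-C EC50 gave 562, 483 and 668, a change of -0.89 (SE 0.20, adjusted p = 6.56e-04) by limma, and puromycin EC50 705, 969 and 970.5, a change of -0.27 with no call. On day 5 the probe sets of NBN disagreed at ARA-C EC50, from -1.16 to 0.19. At 24 h no EC50 comparison was called, with changes from -0.24 to 0.09.

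MRE11, the nuclease of that complex (chr11:94415570-94512412), gave 1083, 970.2, 1001, 985 and 1044 in vehicle on day 3, 776, 700.4 and 689.6 with ARA-C EC50 and 579, 652 and 606 with doxorubicin EC50. Both drug groups lay below all vehicle arrays, with changes of -0.49 (SE 0.12, adjusted p = 0.00175) and -0.73 (SE 0.12, adjusted p = 2.37e-06) by limma. RAD50, the third subunit (chr5:132556977-132646349), did not fall with them on day 3. It rose with puromycin, to 1643, 1219.9 and 1189 at EC50 and 1506, 1394 and 1384 at 2xEC50 against vehicle 763, 879, 930.4, 729.8 and 793, with changes of 0.71 (SE 0.14, adjusted p = 0.00114) and 0.81 (SE 0.14, adjusted p = 3.67e-05) by limma. At EC50 the call was lost without array 1. A second, dim probe set of RAD50 changed by 0.25 at puromycin EC50 with no call.

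EXO1, the exonuclease that cuts back ends and serves mismatch repair (chr1:241847986-241889939), on day 3 separated the 2 drugs that act on DNA. At 24 h its signals were between 1280.3 and 1719 with a median of 1519 in vehicle, 2078, 1983 and 1972 with ARA-C EC50 and 2967, 2699 and 2672 with ARA-C 2xEC50. All ARA-C arrays lay above all vehicle arrays, with changes of 0.44 (SE 0.12, adjusted p = 0.00592) and 0.91 (SE 0.12, adjusted p = 7.22e-08) by limma. On day 3 ARA-C EC50 gave 2279, 2353 and 2259.5 and doxorubicin EC50 1219.7, 1455 and 1284, on either side of the vehicle signals of 1764, 1943, 1738, 1678 and 1652. The changes were 0.39 (SE 0.12, adjusted p = 0.0147) and -0.41 (SE 0.12, adjusted p = 0.00797) by limma. At 24 h ARA-C EC50 differed from doxorubicin EC50 by 0.22, with no call in the deposited scaling. It differed from puromycin EC50 by 0.29 at 24 h and 0.07 on day 3, also with no call there. Under quantile normalization both differences of 24 h were called (0.34 and 0.33). EXO1 was also called higher in 1 of the 5 puromycin comparisons with vehicle. The day 3 rise at ARA-C EC50 was not called under a common median (0.06), with plate part as a block (0.29), against vehicle of the same plate part (0.31) or with the replicate block (0.30). The day 3 fall at doxorubicin EC50 was not called without array 1, and the 24 h rise at ARA-C EC50 was not called against vehicle of the same plate part. On day 5 EXO1 was lower at both EC50 doses, 1222, 772 and 1052 and 851, 656 and 689 against vehicle signals between 1247 and 1359.9 with a median of 1304, and higher at ARA-C 2xEC50 (1910.2, 1642 and 1922), with changes of -0.38, -0.84 and 0.49. Under quantile normalization the change at ARA-C EC50 on day 5 became 0.49, under a common median 0.03, and without array 2 it was -0.20 and not called.

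BLM, the helicase that unwinds recombination intermediates (chr15:90717346-90816166), was lowered by doxorubicin alone among the calls. On day 3 vehicle gave 2006, 2090.2, 2601, 2842 and 2490.1 and doxorubicin EC50 1309.7, 1633 and 1440.3, with no overlap and a change of -0.71 (SE 0.14, adjusted p = 1.37e-04) by limma. Doxorubicin 2xEC50 gave 1260, 1413 and 1379, while ARA-C EC50 at 2805, 2036 and 1981 overlapped vehicle, with a change of -0.09. MSH6, which recognizes mismatches, was called lower on day 5 only, with changes of -1.03 at ARA-C EC50, -0.39 at ARA-C 2xEC50, -0.37 at doxorubicin EC50 and -0.88 at doxorubicin 2xEC50.

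**Figure D3:**
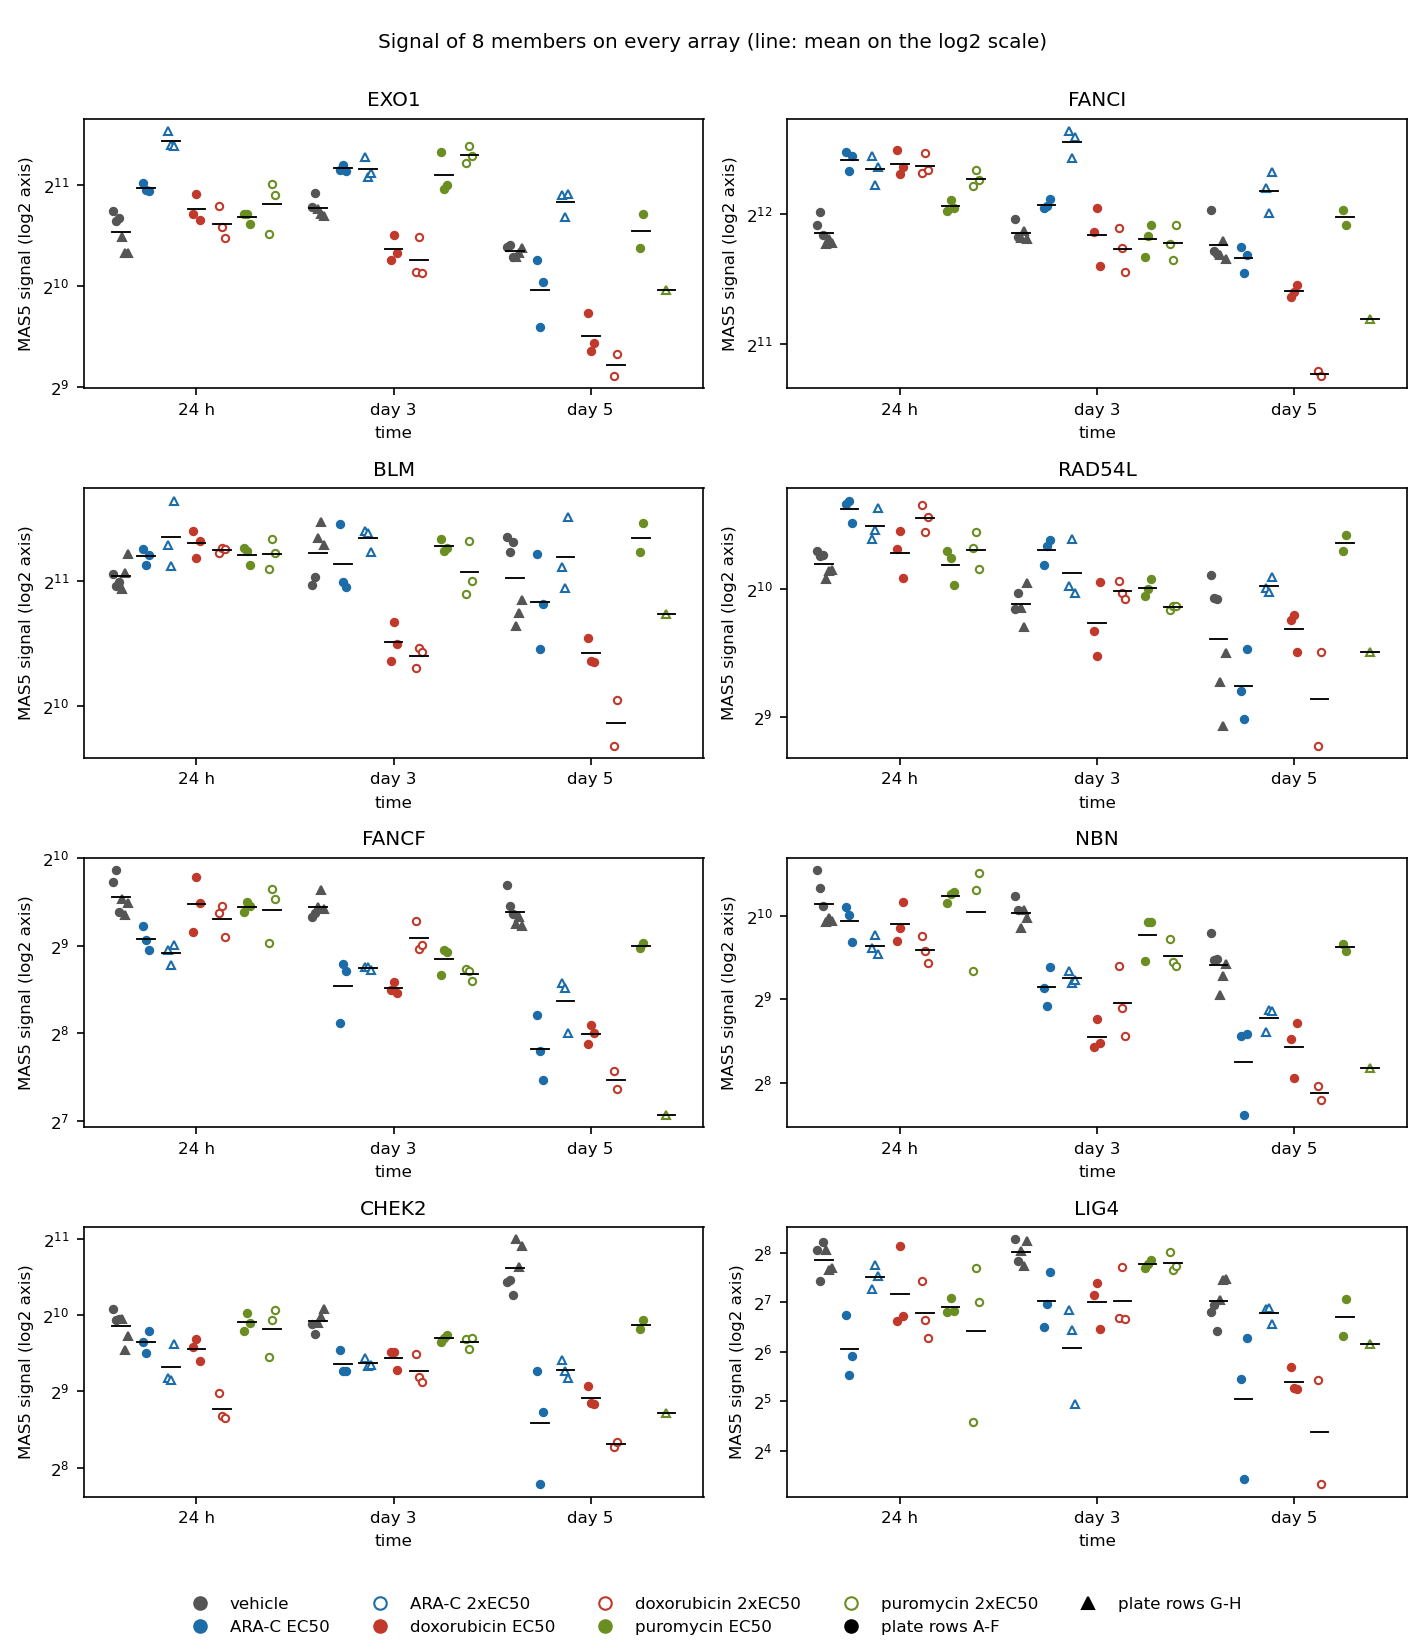
MAS5 signal of 8 member genes on every array of the fit (log2 axis) by time, with 1 colour per compound, open symbols for 2xEC50, triangles for plate rows G-H and lines for group means on the log2 scale. EXO1 of day 3 lies above vehicle with ARA-C and below it with doxorubicin, and the doxorubicin arrays of BLM and NBN on day 3 lie under all vehicle arrays.

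Of the 7 checkpoint genes, CHEK2 was called most often. CHEK2, the kinase that ATM activates (chr22:28687742-28741834), gave vehicle signals of 946, 865, 954, 1011 and 1079.8 on day 3, 746, 617 and 617 with ARA-C EC50 and 735, 734 and 619.9 with doxorubicin EC50. Both drug groups lay below all vehicle arrays, with changes of -0.56 (SE 0.17, adjusted p = 0.0159) and -0.48 (SE 0.17, adjusted p = 0.0393) by limma. Neither was called with plate part as a block (-0.49 and -0.41), against vehicle of the same plate part, with the replicate block or with the ACTB covariate (-0.31 and -0.29). The first was also lost without array 3, and the second without any 1 of its 3 arrays or vehicle array 1, 4, 5 or 6. On day 5 vehicle ran between 1233 and 2041 with a median of 1500.4, and ARA-C EC50 gave 616, 219.9 and 424, doxorubicin EC50 536, 459 and 455 and puromycin EC50 900.2 and 978. All 3 treated groups lay below all vehicle arrays, with changes of -2.03 (SE 0.17, adjusted p = 3.96e-15), -1.70 (SE 0.17, adjusted p = 1.49e-12) and -0.74 (SE 0.19, adjusted p = 0.00437) by limma. The first 2 were called under every alternative run, and the puromycin change was not called under a common median, against vehicle of the same plate part, or without array 1. At 24 h doxorubicin 2xEC50 gave 503, 411 and 404 against vehicle between 743 and 1083 with a median of 981, a change of -1.09 (SE 0.17, adjusted p = 2.71e-06) by limma. In vehicle itself CHEK2 rose from day 3 to day 5 by 0.70.

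ATM, the kinase that senses breaks (chr11:108223067-108369102), was called on day 5 only. Vehicle ran between 407 and 872 with a median of 628 there, ARA-C EC50 gave 207, 79.2 and 204 and doxorubicin EC50 306, 166 and 177. The groups did not overlap, with changes of -2.06 (SE 0.23, adjusted p = 7.16e-11) and -1.58 (SE 0.23, adjusted p = 1.10e-07) by limma. At 24 h its signals were 429, 333 and 292 with ARA-C EC50 and between 369 and 556 with a median of 456 in vehicle, a change of -0.40 with no call. The other 2 probe sets of ATM were called lower at that time, with changes of -1.45 and -2.06. On day 3 it changed by -0.08 at ARA-C EC50 (387, 384 and 325) and -0.36 at doxorubicin EC50 (292, 342 and 271) against vehicle at 493, 320.4, 362, 360.4 and 413.

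ATR, the kinase that senses stalled forks (chr3:142449235-142578733), rose at 24 h. Vehicle ran between 1186 and 1481 with a median of 1298, ARA-C EC50 gave 1850.4, 1813 and 1745 and doxorubicin EC50 1857, 1635 and 2294. All treated arrays lay above vehicle, with changes of 0.45 (SE 0.14, adjusted p = 0.0182) and 0.53 (SE 0.14, adjusted p = 0.0106) by limma. The first was lost without any 1 of its 3 arrays and the second without array 3, and both were lost under a common median. Puromycin EC50 gave 1696, 1596 and 1775, which also lay above vehicle but was not called (0.35). On day 3 the changes at ARA-C and doxorubicin EC50 were -0.04 and 0.08, and on day 5 -0.53, which was called, and -0.17.

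CHEK1, the kinase downstream of ATR (chr11:125625136-125681124), was measured by probe sets that disagreed. The brightest gave 2221, 2216 and 2402 at 24 h of ARA-C EC50 against vehicle between 1694 and 1906 with a median of 1779, a change of 0.35 with no call, while a second one changed by -0.66 and passed the threshold. On day 5 ARA-C EC50 gave 891, 577 and 700.3 and puromycin EC50 2371 and 2028, against vehicle between 872 and 1961 with a median of 1116. The changes were -0.76 (SE 0.18, adjusted p = 2.34e-04) and 0.86 (SE 0.20, adjusted p = 0.00186) by limma, and the latter was not called against vehicle of the same plate part (0.56). On day 3 the changes at ARA-C, doxorubicin and puromycin EC50 were -0.32, -0.34 and 0.43, with no call.

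WEE1, which holds CDK1 inactive (chr11:9573670-9589985), was lower with ARA-C EC50 at 24 h and on day 5 but not on day 3. At 24 h ARA-C EC50 gave 1358, 1233 and 968 against vehicle between 1564 and 2139 with a median of 1812, a change of -0.63 (SE 0.16, adjusted p = 0.00421) by limma, and without array 3 it was not called. On day 3 vehicle gave 1458, 1636, 1491, 1500 and 1433, ARA-C EC50 1549.8, 1794 and 1538, ARA-C 2xEC50 1915, 2358 and 1984 and doxorubicin EC50 1906, 2019 and 2049. The last 2 groups lay above all vehicle arrays, with changes of 0.47 (SE 0.17, adjusted p = 0.0386) and 0.41 (SE 0.17, adjusted p = 0.076) by limma, of which only the first passed. It was lost under a common median, with the replicate block, and without any 1 of its 3 arrays or vehicle array 1, 4, 5 or 6. On day 5 ARA-C EC50 gave 878, 529 and 765 and doxorubicin EC50 1228, 1051 and 1283 against vehicle signals between 1343 and 2108 with a median of 1491, with changes of -1.15 (SE 0.16, adjusted p = 1.51e-08) and -0.41 (SE 0.16, adjusted p = 0.0337) by limma. The second was 0.0638 under quantile normalization and -0.06 under a common median, and was not called without array 1, array 2 or vehicle array 1 or 2. CLSPN, the adaptor between ATR and CHEK1, was called once, higher by 0.80 at ARA-C 2xEC50 on day 5, and was not called without array 1, without vehicle array 4, 5 or 6, or with the replicate block. TP53BP1, which shields ends from being cut back, was lower at doxorubicin EC50 on day 3 (-0.35) and day 5 (-0.68), and higher at ARA-C 2xEC50 on day 3 (0.33). Neither day 3 call was kept under a common median, the first was also lost under quantile normalization or without array 1, and the second with the replicate block or without array 2, array 3 or vehicle array 4 or 5.

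On day 5 the falls ran alongside signs of RNA breakdown. The ACTB ratio was 0.529 to 2.082 on the vehicle arrays of that day, 2.877, 5.074 and 3.167 with ARA-C EC50, 2.132 to 2.932 with doxorubicin EC50, and 4.999 and 4.095 with doxorubicin 2xEC50. Of the 33 genes, 28 had their lowest ARA-C EC50 signal of day 5 on array 2, the array with the highest ratio, and without it 21 in place of 28 genes were called. On the 2 puromycin EC50 arrays of day 5 the ratio was 2.104 and 2.451, near that of doxorubicin EC50, and the mean log2 signal of the 33 genes was 9.95 against 9.255. The lone puromycin 2xEC50 array of that day had a ratio of 4.126 and a mean of 9.135. The part of RNA breakdown in the falls was not tested. With the ACTB ratio as a covariate, 19 genes were lower at ARA-C EC50, 17 at doxorubicin EC50 and 18 at doxorubicin 2xEC50 on day 5, while 19.1%, 21.5% and 18.1% of all probe sets were lower. In that fit BRCA1 changed by 0.59 at ARA-C EC50 with no call, whereas ATM and CHEK2 stayed lower. On day 3 the ratio was 0.289 to 0.814 in vehicle, 1.178 to 1.508 with ARA-C EC50 and 0.69 to 1.606 with doxorubicin EC50. With the covariate 12 genes were lower and 2 higher there at doxorubicin EC50 (all probe sets 9.94% and 12.2%). At ARA-C 2xEC50 on day 3 it gave 5 lower and 9 higher (4.75% and 16.1%). At 24 h the ratio was 0.509 to 1.099 in vehicle, 1.386 to 1.993 with ARA-C EC50 and 1.26 to 2.134 with doxorubicin 2xEC50. The covariate gave 1 lower and 5 higher at ARA-C EC50 of 24 h (3.67% and 6.65%). At doxorubicin 2xEC50 of 24 h it gave 1 lower and 3 higher (4.05% and 9.56%).

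**Figure D4:**
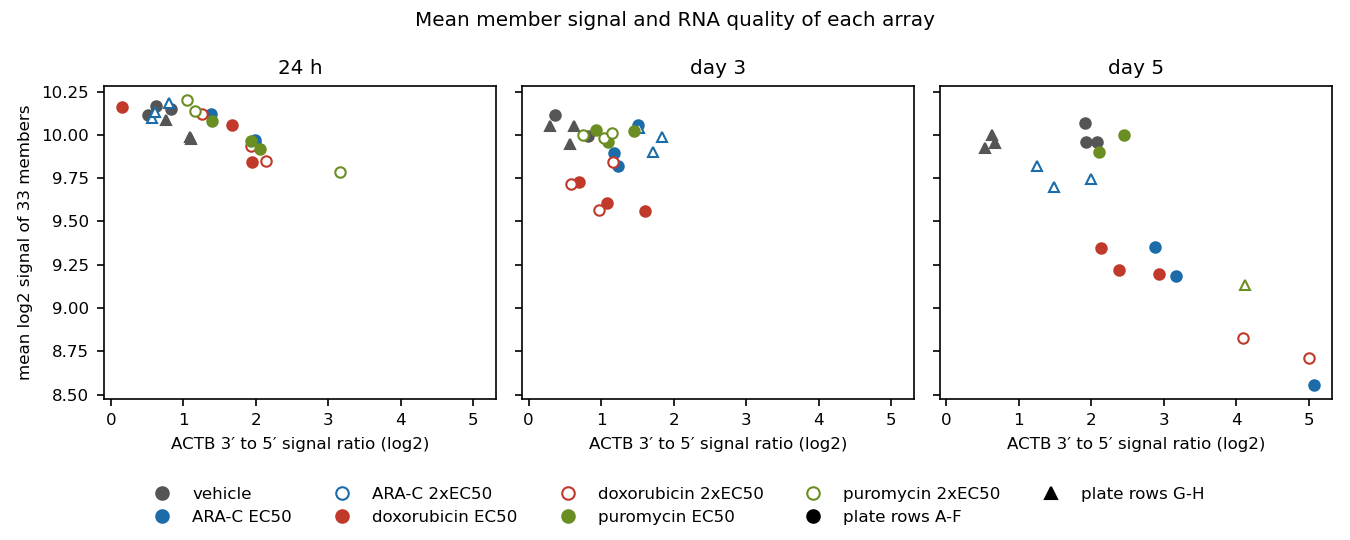
Mean log2 signal of the 33 genes on each array (vertical axis) against the log2 ratio of 3′ to 5′ ACTB signal (horizontal axis), by time, with colours and symbols by compound, dose and plate part. On day 5 the arrays with ratios above 4 have the lowest means, while the doxorubicin arrays of day 3 lie low at ratios that other arrays of that day share.

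ARA-C and doxorubicin were compared directly at the EC50, where all arrays lay in rows A-F and the vehicle cancels. At 24 h, 2 genes were higher with ARA-C (XRCC2 and FANCG) and 1 lower (RAD50), against 2.43% and 3.07% of all probe sets. On day 3, 7 were higher with ARA-C and none lower (background 7.03% and 2.32%). They were XRCC3 (1.15, SE 0.27, adjusted p = 0.00308), FANCC (1.00, SE 0.30, adjusted p = 0.0232), EXO1 (0.80, SE 0.13, adjusted p = 2.06e-05), FANCG (0.77, SE 0.15, adjusted p = 2.85e-04), BLM (0.63, SE 0.16, adjusted p = 0.00737), RAD54L (0.57, SE 0.18, adjusted p = 0.032) and TP53BP1 (0.46, SE 0.12, adjusted p = 0.00706), all by limma. For EXO1 the ARA-C arrays lay above and the doxorubicin arrays below all vehicle arrays. XRCC4 and FANCF were lower under both in every alternative run, and CHEK2 in the deposited scaling without a block. They differed by 0.13 (95% interval -0.41 to 0.68), 0.03 (95% interval -0.33 to 0.38) and -0.08 (95% interval -0.47 to 0.31). The median difference over the 33 genes was 0.24, the same as that of all probe sets (0.24), and with arrays set to a common median only XRCC3 and EXO1 passed. Without doxorubicin array 1 the count of day 3 was 4. At 24 h it was 0 without ARA-C array 2 or doxorubicin array 2, and 1 without ARA-C array 3, doxorubicin array 1 or doxorubicin array 3.

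On day 5, 7 genes were lower with ARA-C than with doxorubicin and 1 higher (background 18.5% and 4.02%). RAD50 differed most (-0.94, SE 0.16, adjusted p = 1.53e-05), followed by CHEK1 (-0.78), WEE1 (-0.74) and XRCC4 (-0.73), while EXO1 remained higher with ARA-C (0.46, SE 0.13, adjusted p = 0.00898), by limma. Under quantile normalization the counts of that day became 3 lower and 8 higher.

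**Figure D5:**
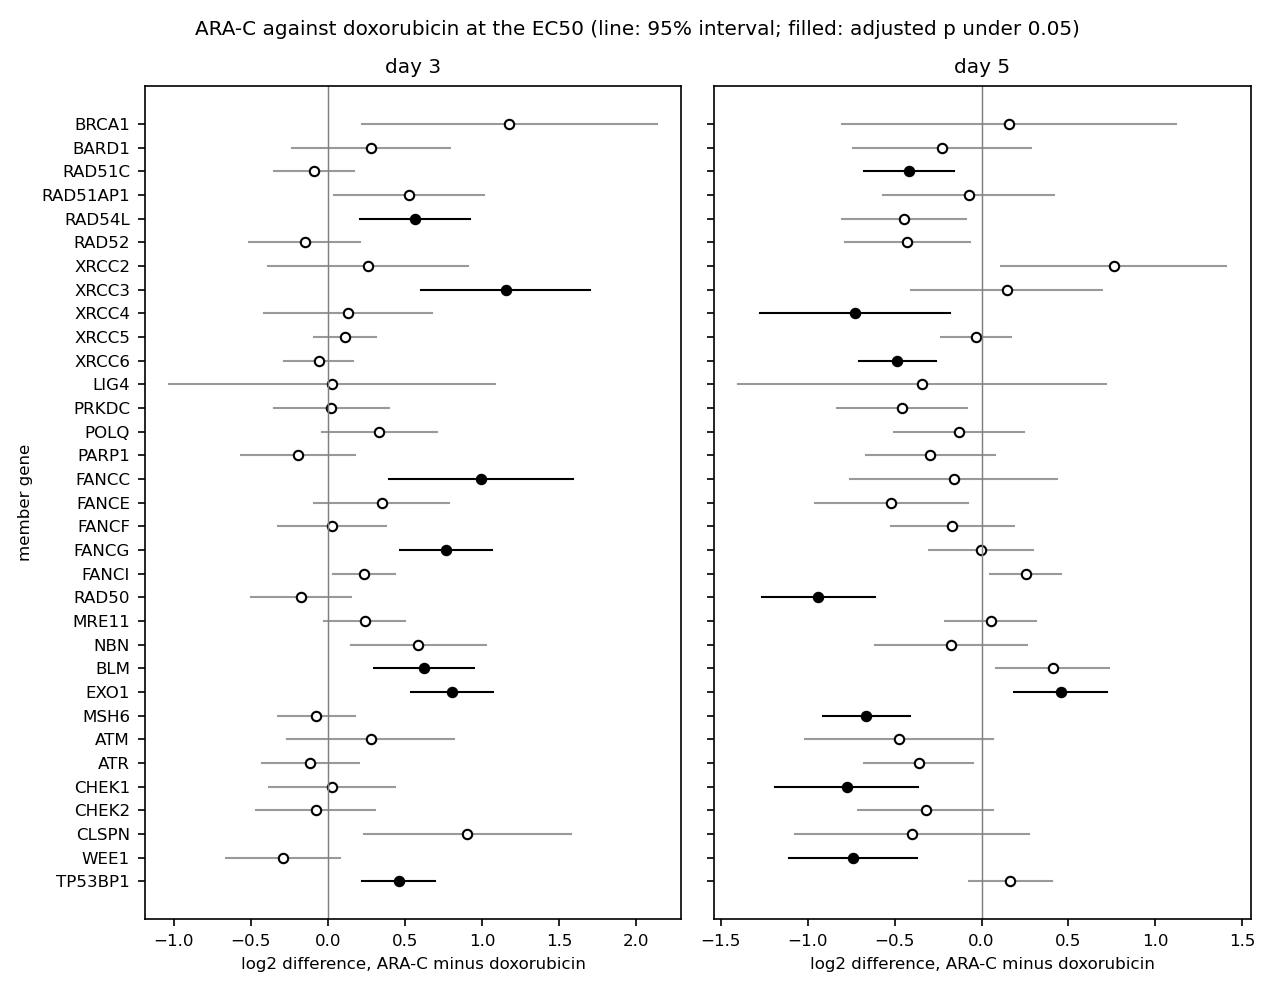
Log2 difference between ARA-C and doxorubicin at the EC50 for each member gene, with 95% intervals, on day 3 (left) and day 5 (right). Filled points passed the threshold: on day 3 all 7 lie to the right of 0, led by XRCC3 and FANCC, and on day 5 7 of 8 lie to the left.

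Against puromycin EC50, ARA-C gave 4 genes higher and 1 lower at 24 h (background 4.74% and 1.89%), 3 higher and 7 lower on day 3 (13.9% and 4.79%), and 29 lower with none higher on day 5 (27.3% and 7.94%). On day 3 the largest differences were XRCC4 (-1.01), CLSPN (0.99) and XRCC2 (0.96). With a common median 19 genes were lower with ARA-C than with puromycin on day 3 and none higher. Doxorubicin against puromycin gave 1 gene higher and none lower at 24 h (2.58% and 0.585%), 7 lower and none higher on day 3 (6.81% and 9.3%), and 22 lower and none higher on day 5 (15.4% and 7.6%). The 7 of day 3 were NBN (-1.21), XRCC4 (-1.14), MRE11 (-0.83), CHEK1 (-0.78), BLM (-0.77), EXO1 (-0.74) and XRCC5 (-0.46). With a common median 18 genes were lower there. The 5 calls of ARA-C against puromycin at 24 h fell to between 0 and 3 without any 1 of the 6 arrays, and the 10 of day 3 became 5 without ARA-C array 3 and 6 without puromycin array 2. The doxorubicin call at 24 h was lost without doxorubicin array 2 or puromycin array 1, and the 22 of day 5 became 12 without puromycin array 2.

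Few of the 33 genes differed between doses before day 5. The 2xEC50 and EC50 groups of doxorubicin differed in 1 gene at 24 h (CHEK2, -0.78; background in either direction 0.378%) and none on day 3 (1.3%), and those of puromycin in none at 24 h (0%) or day 3 (0.356%). On day 5 doxorubicin 2xEC50 was below EC50 for 19 genes and above it for 1 (background 23% and 6.37%), with PRKDC at -2.07 and XRCC4 at -1.53. Under quantile normalization 4 were below and 4 above. ARA-C differed in 4 genes at 24 h (14.3%), among them BRCA1 at 1.69 and EXO1 at 0.47, and in 2 on day 3 (0.752%), FANCI at 0.48 and MRE11 at 0.62. On day 5, 25 genes were higher at the higher ARA-C dose and none lower (background 34.1% and 3.79%). The 2 doses of ARA-C lay in different plate parts, so dose cannot be told apart from plate part except through the vehicle arrays. Their ACTB ratios did not overlap at any time, and at 24 h were 1.386 to 1.993 at EC50 and 0.561 to 0.803 at 2xEC50. The part of RNA quality in the dose differences was not tested. With plate part as a block 25 genes differed on day 5, 23 of them shared with the fit without it. Under quantile normalization 2 were lower and 6 higher, and under a common median 9 were higher and none lower.

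Over time, the effect of doxorubicin EC50 fell further from 24 h to day 3 for 10 genes and rose for 1 (background 4.88% and 4.12%). NBN (-1.25, SE 0.27, adjusted p = 0.00112) and BLM (-0.98, SE 0.20, adjusted p = 5.45e-04) fell most, by limma, and WEE1 was the gene that rose (0.91). With a common median 8 were lower and 1 higher, and with quantile normalization 12 and 1. For ARA-C EC50 only WEE1 passed (0.75, SE 0.23, adjusted p = 0.0486 by limma; background in either direction 4.27%), but quantile normalization gave 9 lower and 1 higher. Under a common median 9 were lower and none higher, and WEE1 was at 0.39 and not called. For puromycin EC50 none passed (0.063%).

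Vehicle cultures shifted some of the same genes with time. None differed between 24 h and day 3 (background in either direction 3.16%). Between day 3 and day 5, 9 did (21.1%): CHEK2 (0.70), ATM (0.69), RAD50, FANCG and TP53BP1 were higher, and NBN (-0.62), CHEK1, PARP1 and EXO1 lower. Between plate rows G-H and A-F, none differed at 24 h (0.446%) or day 3 (0.792%), and 10 on day 5 (22.2%). Day 5 changes of the 33 genes therefore rest on a vehicle group that is not uniform.

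Other genes of these pathways were counted in the same fit. Of 50 further repair and checkpoint genes with a probe set, 20 were lower and 1 higher on day 3 of doxorubicin EC50 (median -0.38), and 7 lower and 6 higher on day 3 of ARA-C EC50 (median -0.07). In these 2 comparisons the background was 11.1% and 9.03%, and 7.92% and 14.5%, respectively. LIG3, a ligase of single-strand break repair, changed by -1.53 (SE 0.38, adjusted p = 0.00184) and -1.09 (SE 0.38, adjusted p = 0.032) there, RPA3, a subunit that coats single strands, by -1.20 (SE 0.13, adjusted p = 1.95e-10) at doxorubicin EC50, and BRIP1, the helicase that binds BRCA1, by -1.17 (SE 0.43, adjusted p = 0.0476), by limma. POLL, a gap-filling polymerase, and RECQL4, a helicase, rose with ARA-C EC50 on day 3, by 1.34 and 0.84. At 24 h the largest changes were LIG3 (-1.29), NHEJ1 (-0.91) and DCLRE1C (-0.72), all of end joining or strand break repair, with ARA-C EC50, and H2AX (-0.74), the histone marked at breaks, CDC25C (-0.59), a phosphatase that drives mitosis, and PARP2 (-0.45) with doxorubicin EC50. On day 5 they were LIG3 (-3.25), DNA2 (-1.97) and RPA3 (-1.95) with ARA-C EC50, and BRIP1 (-2.14), LIG3 (-1.95) and RPA3 (-1.61) with doxorubicin EC50. Of 18 S phase genes given as a reference for cycling, 8 were lower and none higher on day 3 of doxorubicin EC50 (median -0.24), and 3 lower and 1 higher with ARA-C EC50 (median -0.15). Their background was the one given for the 50 genes on day 3. The part of a change in cycling in the falls of the repair genes was not tested.

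A second probe set existed for 15 of the 33 genes. Over the 17 comparisons the brightest probe sets of these genes gave 86 calls and the second ones 80, of which 53 were shared in direction and none were opposed.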

How the data were processed

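RNA of A673 cells was hybridized to Affymetrix arrays. The deposited values are MAS5 signal intensities, which the authors scaled so that the mean of each array was about the same, and the version of MAS5 is not given in the sources used here. Groups came from the sample labels and plate rows from the sample list of the study. The 715 control probe sets, 1 of CHEK1 among them, were left out, as was puromycin EC50 day 5 array 3. Signals under 10 were set to 10, and log2 values of 67 arrays and 22215 probe sets were fitted by group in R 4.3.3 with limma 3.58.1 (eBayes with an intensity trend, 46 residual degrees of freedom). The Benjamini-Hochberg adjustment ran over every probe set tested, and the fit was tested on simulated data. The number of arrays limits the precision, and p-values measure the spread between arrays, which may be technical.

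The members and gene lists were chosen with earlier results of these data known. Genes given array by array were those among the 4 largest changes past the threshold in an EC50 comparison, with BRCA1, CHEK1, ATM, ATR, LIG4 and WEE1 always. EXO1, BLM, FANCI, FANCG and MRE11 were added after their values were seen. Alternatives were quantile normalization, a common median, other floors, an upper limit of 16000, dim probe sets left out, plate part or replicate number as a block, vehicle of the same plate part, no trend, only the arrays compared, array weights and leaving out each array. The ACTB covariate and the fit without the 2 arrays of raised low signals were chosen after seeing the data. Probe sets with a name ending in _x_at or _s_at, among them those of BRCA1, XRCC2 and XRCC4, can bind other transcripts. Gene coordinates and promoters are from RefSeq on GRCh38.p14.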

Additional observations from a re-analysis of the deposited data

Results flagged for a closer look

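Of 99 pairs of a gene and a vehicle group, 9 held an array far from the others of its group, where chance gives about 1 in 20. At 24 h, array 1 gave 8930 for XRCC5 (others 10130 to 10420) and 1506 for TP53BP1 (others 1342 to 1401). On day 3, BRCA1 was 105.6 on array 2 (others 215.8 to 272.4), RAD52 was 1598 on array 4 (others 1774 to 1835) and XRCC4 was 417 on array 6 (others 361.8 to 376.1). On day 5, XRCC2 was 317 on array 4 (others 464.6 to 581.1), PARP1 was 1801 on array 5 (others 2031 to 2177), and on array 1 FANCI was 4188 (others 3218 to 3546) and MRE11 was 1265 (others 999.6 to 1076).

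The effect of doxorubicin EC50 differed between day 3 and 24 h by the limma contrast of the 2 effects for 11 genes. The differences were -1.25 for NBN, -0.98 for BLM, -0.86 for FANCE, -0.85 for FANCF, -0.84 for MRE11, -0.81 for PARP1, -0.68 for FANCG, -0.64 for EXO1, -0.59 for XRCC5, -0.55 for FANCI and 0.91 for WEE1. For ARA-C EC50 only WEE1 differed, by 0.75.

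On the puromycin EC50 day 5 array that was left out, 9 of the 33 genes lay above every vehicle array of day 5 and 19 below. The share of all probe sets outside the vehicle range on that array was not counted, so this is not a result about these genes.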

How the results depend on the processing

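The limits are those of 2 or 3 arrays a group and of the scaling. Most drug comparisons on day 5 set arrays of unequal RNA quality side by side, and dim genes such as LIG4 and BRCA1 reached the floor or spread widely. Of 182 called changes of single genes, 139 kept direction and call under quantile normalization, 129 under a common median, 148 against vehicle of the same plate part and 136 with the ACTB covariate. The 182 were all kept with a floor of 32, an upper limit of 16000 or dim probe sets left out. The causes of the losses were not tested.

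The number of the 33 genes called moved by over 1.5 times in these cases. Under quantile normalization it was 5 (from 3) for doxorubicin EC50 24 h, 5 (from 3) for puromycin 2xEC50 24 h, 8 (from 1) for puromycin EC50 24 h, 7 (from 4) for puromycin EC50 day 5 and 6 (from 3) for ARA-C minus doxorubicin EC50 24 h. The same setting gave 15 (from 29) for ARA-C minus puromycin EC50 day 5 and 12 (from 7) for doxorubicin minus puromycin EC50 day 3. Under a common median it was 8 (from 4) for ARA-C 2xEC50 24 h, 7 (from 11) for ARA-C 2xEC50 day 3, 17 (from 28) for ARA-C EC50 day 5, 15 (from 26) for doxorubicin EC50 day 5 and 10 (from 1) for puromycin EC50 24 h. The same setting gave 15 (from 4) for puromycin EC50 day 5, 2 (from 7) for ARA-C minus doxorubicin EC50 day 3, 4 (from 8) for ARA-C minus doxorubicin EC50 day 5, 19 (from 10) for ARA-C minus puromycin EC50 day 3 and 18 (from 7) for doxorubicin minus puromycin EC50 day 3. With a floor of 32 it was 2 (from 1) for puromycin EC50 24 h and 2 (from 1) for doxorubicin minus puromycin EC50 24 h. With dim probe sets left out it was 3 (from 1) for puromycin EC50 24 h. With plate part as a block it was 7 (from 11) for ARA-C EC50 day 3, 2 (from 1) for puromycin EC50 24 h and 2 (from 1) for doxorubicin minus puromycin EC50 24 h. Against vehicle of the same plate part it was 6 (from 11) for ARA-C EC50 day 3, 3 (from 1) for puromycin EC50 24 h, 1 (from 2) for puromycin EC50 day 3 and 0 (from 4) for puromycin EC50 day 5. With the replicate number as a replicate block it was 7 (from 11) for ARA-C 2xEC50 day 3, 7 (from 11) for ARA-C EC50 day 3 and 2 (from 1) for puromycin EC50 24 h. With only the arrays compared it was 9 (from 4) for ARA-C 2xEC50 24 h, 15 (from 9) for ARA-C EC50 24 h, 10 (from 6) for doxorubicin 2xEC50 24 h, 5 (from 3) for puromycin 2xEC50 day 3 and 7 (from 1) for puromycin EC50 24 h. The same setting gave 1 (from 4) for puromycin EC50 day 5. With array weights it was 10 (from 4) for ARA-C 2xEC50 24 h, 19 (from 11) for ARA-C 2xEC50 day 3, 14 (from 9) for ARA-C EC50 24 h, 12 (from 6) for doxorubicin 2xEC50 24 h and 17 (from 10) for doxorubicin 2xEC50 day 3. The same setting gave 7 (from 3) for puromycin 2xEC50 24 h, 8 (from 3) for puromycin 2xEC50 day 3, 11 (from 1) for puromycin EC50 24 h, 6 (from 2) for puromycin EC50 day 3 and 11 (from 4) for puromycin EC50 day 5. With puromycin EC50 day 5 array 3 kept it was 15 (from 4) for puromycin EC50 day 5. With the ACTB covariate, chosen after seeing the data, it was 18 (from 30) for doxorubicin 2xEC50 day 5, 17 (from 26) for doxorubicin EC50 day 5, 6 (from 3) for puromycin 2xEC50 24 h, 5 (from 3) for puromycin 2xEC50 day 3 and 5 (from 1) for puromycin EC50 24 h. The same setting gave 4 (from 2) for puromycin EC50 day 3. Without the 2 arrays of raised low signals, also chosen after seeing the data, it was 7 (from 11) for ARA-C EC50 day 3. Correlations of deviations between arrays of the same number ran from -0.117 to 0.164 over vehicle and EC50 arrays of 24 h and day 3. Arrays of different numbers were not compared, so this does not settle whether the replicate numbers pair the arrays.

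Leaving out 1 array at a time gave these ranges of the count. The range was 3 to 5 for ARA-C 2xEC50 24 h, 4 to 9 for ARA-C EC50 24 h, 2 to 9 for doxorubicin 2xEC50 24 h, 1 to 5 for doxorubicin EC50 24 h and 2 to 4 for puromycin 2xEC50 24 h. It was 1 to 2 for puromycin EC50 24 h, 6 to 12 for ARA-C 2xEC50 day 3, 7 to 13 for ARA-C EC50 day 3, 8 to 12 for doxorubicin 2xEC50 day 3 and 8 to 15 for doxorubicin EC50 day 3. The range was 3 to 3 for puromycin 2xEC50 day 3, 0 to 2 for puromycin EC50 day 3, 12 to 16 for ARA-C 2xEC50 day 5, 21 to 29 for ARA-C EC50 day 5 and 24 to 30 for doxorubicin 2xEC50 day 5. It was 22 to 26 for doxorubicin EC50 day 5, 1 to 5 for puromycin EC50 day 5, 0 to 2 for ARA-C minus doxorubicin EC50 24 h, 0 to 3 for ARA-C minus puromycin EC50 24 h and 4 to 9 for ARA-C minus doxorubicin EC50 day 3. The range was 5 to 12 for ARA-C minus puromycin EC50 day 3, 6 to 11 for ARA-C minus doxorubicin EC50 day 5, 22 to 29 for ARA-C minus puromycin EC50 day 5, 0 to 1 for doxorubicin minus puromycin EC50 24 h and 6 to 8 for doxorubicin minus puromycin EC50 day 3. It was 12 to 21 for doxorubicin minus puromycin EC50 day 5. Where an arm was left with 1 array, that array was taken to vary as the other groups do.

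The log2 change of some genes turned sign, mostly on day 5. Under quantile normalization, ARA-C EC50 day 5 gave 0.0301 in place of -0.84 for RAD51C, 0.14 in place of -0.69 for RAD51AP1, 0.57 in place of -0.37 for RAD54L, 0.0813 in place of -0.73 for PARP1, 0.49 in place of -0.38 for EXO1, 0.35 in place of -0.53 for ATR, 0.15 in place of -0.76 for CHEK1 and 0.35 in place of -0.51 for TP53BP1. Under quantile normalization, doxorubicin 2xEC50 day 5 gave 0.41 in place of -0.59 for RAD51C, 0.64 in place of -0.47 for RAD54L, 0.30 in place of -0.60 for PARP1, 0.24 in place of -0.69 for FANCC, 0.25 in place of -0.81 for RAD50, 0.38 in place of -0.66 for ATR and 0.33 in place of -0.75 for CHEK1. Under quantile normalization, doxorubicin EC50 day 5 gave 0.062 in place of -0.42 for RAD51C and 0.0638 in place of -0.41 for WEE1. Under a common median, ARA-C EC50 day 5 gave 0.0443 in place of -0.37 for RAD54L, 0.0584 in place of -0.36 for XRCC6 and 0.034 in place of -0.38 for EXO1. Under a common median, doxorubicin 2xEC50 day 5 gave 0.11 in place of -0.29 for XRCC6. With array weights, ARA-C EC50 day 5 gave 0.0852 in place of -0.37 for RAD54L. With puromycin EC50 day 5 array 3 kept, puromycin EC50 day 5 gave -0.27 in place of 0.75 for RAD54L and -0.56 in place of 0.38 for XRCC6. With the ACTB covariate, ARA-C EC50 day 5 gave 0.59 in place of -1.16 for BRCA1. With the ACTB covariate, doxorubicin 2xEC50 day 5 gave 1.04 in place of -1.33 for BRCA1 and 0.0057 in place of -2.64 for LIG4.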
